A study of Mus musculus with 24 samples.

Results

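The 36 genes described here are genes that microglia raise around amyloid plaques, known as the disease-associated microglia program, with its cathepsins, Trem2 and its chemokines kept out. They were taken by name from the 55291 gene rows of the table, with no threshold on these data. Earlier results of these data were known when the list was chosen, so its share of calls is not that of a blind list. All 36 were found, and all 36 passed the filter on low counts that left 17693 genes to test. Microglia are the resident macrophages of the brain, and in their surveillant state they express genes such as P2ry12, Tmem119 and Cx3cr1. Near plaques they take up an activated state in which genes for lysosomes, phagocytosis, lipid handling and secreted factors are induced, in part downstream of the receptor Trem2. Itgax (CD11c), Clec7a (Dectin-1) and Cst7 (cystatin F) are among the genes most used to recognise that state.

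The study profiled the hippocampus of 12 mice in 3 groups of 4 animals: wild-type mice with no treatment (WT), 5xFAD animals that received vehicle, and 5xFAD animals that received MS1262, which the series title calls a G9a inhibitor that enters the brain. G9a is a histone methyltransferase. The 5xFAD line is a model of amyloid disease: its mutant human transgenes are driven in neurons by the Thy1 promoter, and plaques form. The wild-type mice were age-matched and received no vehicle, so that genotype and dosing cannot be told apart in any comparison with them. Age, sex, dose and route are not given in the sources used here. Each animal gave an input library, which measures expression, and a library immunoprecipitated (IP) with an antibody against N6-methyladenosine (m6A), the commonest internal modification of messenger RNA. Levels are in CPM, estimated counts divided by library size with normalization between libraries, and each SD is over the 4 animals of a group.

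Total estimated counts, in units of M (mega), were 20.7 to 43.2 M in the input libraries and 3.98 to 48.6 M in the IP libraries, with the IP library of vehicle animal 4 the smallest. Thy1, whose promoter drives the transgenes, was at 88.7 to 107 CPM in the WT animals and at 273 to 746 CPM in all 8 5xFAD animals. Vehicle animal 3 stood apart. It held 7045 CPM of Ttr, a choroid plexus transcript, against 30.3 to 748 CPM in the other 11 animals, and 33.3 input counts of Xist, the RNA that coats the inactive X chromosome, against 771 to 2006. The summed input level of 8 microglial identity genes, among them Csf1r, Cx3cr1, P2ry12 and Tmem119, was 303 to 352 CPM in WT, 326 to 616 CPM in vehicle and 418 to 525 CPM in MS1262 animals, and vehicle animal 3 held the 326. Counts and calls that change without that animal are given with the results.

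Expression in 5xFAD vehicle against WT mice asked which of these genes the amyloid model raised. Of the 36 members, 18 were higher in vehicle mice and 0 were lower at an adjusted p below 0.05 (edgeR's quasi-likelihood test with Benjamini-Hochberg adjustment over all genes tested), whereas 1.06% of all tested genes were higher and 0.514% lower. The median log2 change of the members was 1.33, beside 0.01 over all tested genes. The largest changes were in Cst7, Atp6v0d2, Itgax and Clec7a, while no member of the lipid, iron and phosphate group passed the test. In tissue RNA, more cells of a type and more RNA per cell cannot be told apart. Without vehicle animal 3, 21 members were higher and 0 lower, the median log2 change was 1.57, and Csf1, Fcer1g and Gpr65 joined the 18. The filter bears on this count, because 7 members (Cst7, Itgax, Lgals3, Cd22, Atp6v0d2, Cd180 and Gpr65) did not reach its level of 0.260 CPM in all 4 WT animals. Among the 29 members that did, 15 were higher in vehicle mice.

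**Figure D1:**
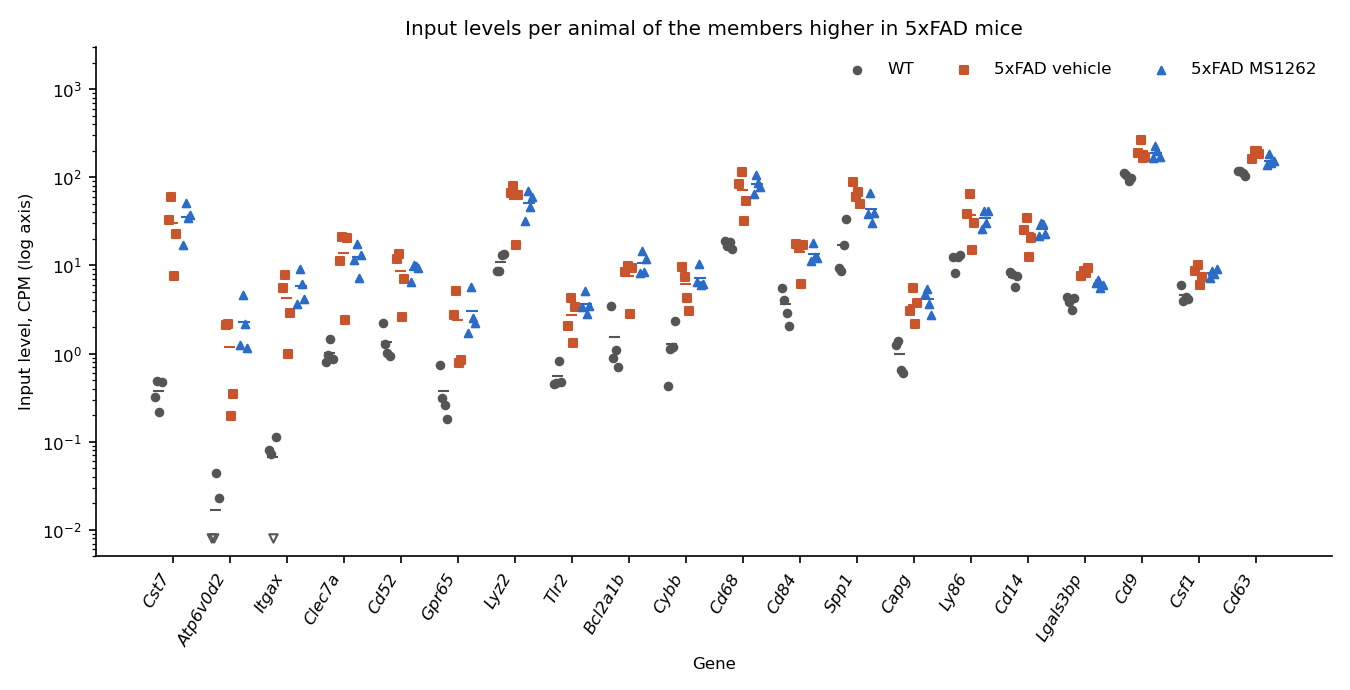
Input level in CPM (log axis) of each of the 12 animals for the 20 members that were higher than in WT mice in at least 1 of the 5xFAD groups. Points are animals, horizontal bars are group means, and open triangles at the bottom are animals listed at 0. Cst7 lies between 0.220 and 0.484 CPM in WT animals and between 7.49 and 59.0 CPM in vehicle animals, with vehicle animal 3 the lowest of its group.

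The lysosome, phagosome and tetraspanin group held 9 members, and 8 of the 9 were higher in vehicle mice. Cst7 encodes cystatin F, an inhibitor of lysosomal cysteine proteases. Its input level was 0.319, 0.484, 0.220 and 0.481 CPM in WT animals 1 to 4, 32.3, 59.0, 7.49 and 22.5 CPM in vehicle animals 1 to 4, and 17.2, 51.6, 34.9 and 37.5 CPM in MS1262 animals 1 to 4. Every 5xFAD animal lay above every WT animal, and vehicle animal 3 was the lowest of the 8. The change from WT to vehicle was 76.3-fold (log2 6.25, SE 0.61, edgeR adjusted p = 0.000124). Summed over inputs there were 3639 counts in vehicle and 58 in WT libraries, a ratio of 70.9 per count sequenced with a 95% counting interval of 54.7 to 93.6. Such intervals cover counting error only, since amplified reads without molecular identifiers are not independent molecules.

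Atp6v0d2, a subunit of the proton pump that acidifies lysosomes, held 2 counts in the 4 WT inputs together against 149 in the vehicle inputs. The ratio per count sequenced was 84.2, with a 95% counting interval of 22.9 to 702. Its level was 2.10, 2.16, 0.196 and 0.351 CPM in vehicle animals 1 to 4, so that animals 3 and 4 were low and animals 1 and 2 high, and all lay above the WT animals (edgeR adjusted p = 0.0104). The test was not passed on the log2(TPM + 1) or log2(TPM + 0.1) scale (limma adjusted p up to 0.231).

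Cd68, the lysosomal glycoprotein used to stain phagocytic microglia, was at 19.0, 16.8, 18.4 and 15.5 CPM in WT animals 1 to 4. In vehicle animals 1 to 4 it was at 84.8, 115, 32.3 and 53.6 CPM, and in MS1262 animals 1 to 4 at 63.8, 106, 86.0 and 77.3 CPM. The WT animals were close to each other and below all 5xFAD animals, with vehicle animal 3 nearest to them. Cd68 was 4.09-fold higher in vehicle than in WT mice (log2 2.03, SE 0.29, edgeR adjusted p = 0.00307).

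The tetraspanins Cd63, a marker of late endosomes, and Cd9 started from high levels and changed by smaller folds. Cd63 was at 118, 117, 110.2 and 103 CPM in WT and at 162, 199, 200.1 and 185 CPM in vehicle animals 1 to 4. Cd9 was at 112, 106, 91.6 and 98.3 CPM in WT and at 189, 264, 164 and 169.6 CPM in vehicle animals 1 to 4. For neither gene did the groups overlap, and vehicle animal 3 was the highest of its group for Cd63. The fold changes were 1.66 for Cd63 (log2 0.73, SE 0.10, edgeR adjusted p = 0.00234) and 1.93 for Cd9 (log2 0.95, SE 0.15, edgeR adjusted p = 0.00464).

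Lyz2, a lysozyme of myeloid cells, went from 10.9 ± 2.69 CPM (SD, n = 4) in WT to 56.5 ± 27.3 CPM (SD, n = 4) in vehicle mice (log2 2.38, SE 0.38, edgeR adjusted p = 0.00576). Reads of Lyz2 can also fit its close relative Lyz1, so its level depends on how the quantification divided them. Cybb, the catalytic subunit of the phagocyte NADPH oxidase, and Capg, an actin-capping protein of macrophages, were higher by 2.24 and 1.86 on the log2 scale (edgeR adjusted p = 0.0208 and 0.0181). Gpnmb, a membrane glycoprotein of lysosomes, was the member of the group that did not pass. It was at 5.33 ± 2.50 CPM (SD, n = 4) in WT and 11.7 ± 6.02 CPM (SD, n = 4) in vehicle mice, a log2 difference of 1.12 with a 95% interval of 0.24 to 1.99 (edgeR adjusted p = 0.244).

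Among the 13 surface receptors and their partners, 7 were higher in vehicle mice. Itgax, the integrin alpha chain CD11c, was at 0.0796, 0.0726, 0 and 0.115 CPM in WT animals 1 to 4, 5.54, 7.88, 0.981 and 2.89 CPM in vehicle animals 1 to 4 and 3.65, 9.07, 6.13 and 4.21 CPM in MS1262 animals 1 to 4. It was close to absent from WT hippocampus, with 11 counts in the 4 inputs together against 530 in the vehicle inputs, a ratio of 54.5 per count sequenced with a 95% counting interval of 30.2 to 110. The fitted change was log2 5.80, SE 0.69, edgeR adjusted p = 0.000794. Vehicle animal 3 was again the lowest 5xFAD animal and still lay above all WT animals.

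Clec7a encodes Dectin-1, a receptor for beta-glucans. Its level was 0.796, 0.968, 1.45 and 0.871 CPM in WT, 11.2, 20.7, 2.43 and 20.3 CPM in vehicle and 11.4, 17.6, 7.18 and 13.2 CPM in MS1262 animals 1 to 4. The groups did not overlap, although vehicle animal 3 at 2.43 CPM was far below the other vehicle animals. Clec7a was 13.6-fold higher in vehicle mice (log2 3.77, SE 0.53, edgeR adjusted p = 0.00259).

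The lipopolysaccharide co-receptor Cd14 was at 8.39, 7.96, 5.71 and 7.51 CPM in WT and 25.1, 34.1, 12.6 and 20.3 CPM in vehicle animals 1 to 4. Cd52, a small glycosylphosphatidylinositol-anchored glycoprotein of leukocytes, was at 2.23, 1.28, 1.01 and 0.939 CPM in WT and 11.7, 13.5, 2.59 and 7.03 CPM in vehicle animals 1 to 4. Vehicle animal 3 came within a small margin of the highest WT animal for Cd52, and the groups overlapped for neither gene. Cd14 changed 3.10-fold (log2 1.63, SE 0.25, edgeR adjusted p = 0.00415) and Cd52 6.31-fold (log2 2.66, SE 0.43, edgeR adjusted p = 0.00598).

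The other 3 receptors or partners that passed were Tlr2, a receptor for bacterial lipoproteins (log2 2.32), Cd84, a homotypic receptor of the SLAM family (log2 1.97), and Ly86, also called MD-1, the partner of Cd180 (log2 1.68; edgeR adjusted p = 0.0194). Cd180 itself was at 0.739 ± 0.703 CPM (SD, n = 4) in WT and 1.67 ± 0.768 CPM (SD, n = 4) in vehicle mice and did not pass (edgeR adjusted p = 0.368). Of the other receptors, Fcer1g, the common gamma chain of Fc receptors, differed by 1.15 on the log2 scale (95% interval 0.53 to 1.76) and the proton-sensing receptor Gpr65 by 2.63 (1.24 to 4.02), both short of the threshold (edgeR adjusted p = 0.0713 and 0.0629). Axl, a TAM-family receptor tyrosine kinase for apoptotic cells, differed by 0.45 (0.14 to 0.77) and Ms4a7 by 0.46 (-0.33 to 1.26). Cd22, a sialic acid receptor, had the widest interval of the receptors, 0.95 to 5.31 around 3.13, with 2 of the 4 WT inputs listed at 0.

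Of the 7 secreted factors, 2 were higher in vehicle mice, Spp1 and Lgals3bp. Spp1, osteopontin, was at 9.37, 8.74, 17.2 and 33.5 CPM in WT, 87.2, 59.7, 68.6 and 49.1 CPM in vehicle and 38.3, 65.9, 30.2 and 39.5 CPM in MS1262 animals 1 to 4. WT animal 4 was far above the other WT animals and reached into the MS1262 range, but not into the vehicle range. Spp1 was 3.84-fold higher in vehicle than in WT mice (log2 1.94, SE 0.37, edgeR adjusted p = 0.0179). Lgals3bp, a secreted galectin-binding glycoprotein, was at 4.38, 3.85, 3.12 and 4.31 CPM in WT, 7.54, 8.53, 8.24 and 9.36 CPM in vehicle and 6.26, 6.80, 5.60 and 5.94 CPM in MS1262 animals 1 to 4. It was tight within each group, vehicle animal 3 included, and 2.14-fold higher in vehicle than in WT mice (log2 1.10, SE 0.16, edgeR adjusted p = 0.00329).

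The cytokine Csf1, a ligand of the microglial receptor Csf1r, was 4.64 ± 0.875 CPM (SD, n = 4) in WT and 8.08 ± 1.80 CPM (SD, n = 4) in vehicle mice, with no overlap, and narrowly missed the threshold (log2 0.80, edgeR adjusted p = 0.0541). The growth factor Igf1, also made by neurons, differed by 0.41 (-0.07 to 0.89), the metalloprotease inhibitor Timp2 by 0.23 (-0.07 to 0.53) and the Wnt antagonist Dkk2 by 1.03 (0.12 to 1.93), and none of these passed. Lgals3, galectin-3, stayed below 1 CPM in all 8 WT and vehicle animals, with an interval of -0.15 to 3.19.

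No gene of the lipid, iron and phosphate group passed the test, 0 of 5 in either direction. The lipoprotein lipase gene Lpl was at 91.9 ± 29.4 CPM (SD, n = 4) in WT and 73.8 ± 13.2 CPM (SD, n = 4) in vehicle mice, and the fatty acid carrier Fabp5 at 71.8 ± 5.82 and 62.3 ± 7.29 CPM (SD, n = 4 each). The ferritin heavy chain gene Fth1 was at 965, 673, 529.9 and 609 CPM in WT and 498, 546, 594 and 970.4 CPM in vehicle animals 1 to 4. The upper end of the 95% interval of the log2 change was 0.09 for Lpl, 0.04 for Fabp5, 0.34 for Fth1 and 0.37 for Ank, a pyrophosphate transporter. For Ch25h, which makes 25-hydroxycholesterol, the log2 difference was 1.03 (0.17 to 1.90). Lpl, Fabp5, Fth1 and Ank are expressed widely in the brain, and their share from microglia cannot be read from tissue RNA. Fth1 has near-identical processed copies in the genome, so its level is uncertain.

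The intracellular pair split. Bcl2a1b, a survival protein of the Bcl2 family, was at 3.48, 0.896, 1.10 and 0.710 CPM in WT, 8.44, 9.75, 2.79 and 9.38 CPM in vehicle and 8.18, 14.5, 8.52 and 11.9 CPM in MS1262 animals 1 to 4. WT animal 1 was above vehicle animal 3, so the WT and vehicle groups overlapped, and the change was 4.89-fold (log2 2.29, SE 0.48, edgeR adjusted p = 0.0303). That call was lost for 6 of the 8 animals left out in turn and with only the 2 groups in the fit (edgeR adjusted p up to 0.0919). Of the other members called in vehicle mice, leaving out 1 animal ended the call of Ly86 for 5 of the 8 animals, of Cybb for 4, and of Capg and Spp1 for 3. Bcl2a1b has near-identical neighbours of the Bcl2a1 cluster, so its level too is uncertain. The oxygen-sensing transcription factor Hif1a differed by -0.02 on the log2 scale (-0.29 to 0.26).

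Promoters are shown for the 5 members called above whose start region holds one of the motifs searched: 3 with an AP-1 type motif (TGACTCA, or TGAGTCA on the other strand) and 2 with a PU.1 type motif (GAGGAAGT, or ACTTCCTC). PU.1 is the lineage factor of microglia, and AP-1 factors bind in activated macrophages. Each run is the 250 bases before the start site from RefSeq (GRCm38.p6), written 5′ to 3′ on the strand of the gene, with the motif in capitals. The windows are chr7:128129300-128129549 (+) for Itgax, chr11:69666171-69666420 (-) for Cd68, chr1:171839447-171839696 (+) for Cd84, chr5:104434861-104435110 (+) for Spp1 and chr9:89199023-89199272 (+) for Bcl2a1b.
Itgax: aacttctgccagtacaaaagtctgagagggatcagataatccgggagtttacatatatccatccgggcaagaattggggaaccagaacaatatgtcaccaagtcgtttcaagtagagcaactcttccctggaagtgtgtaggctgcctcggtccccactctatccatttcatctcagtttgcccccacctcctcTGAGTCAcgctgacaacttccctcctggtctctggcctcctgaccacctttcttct
Cd68: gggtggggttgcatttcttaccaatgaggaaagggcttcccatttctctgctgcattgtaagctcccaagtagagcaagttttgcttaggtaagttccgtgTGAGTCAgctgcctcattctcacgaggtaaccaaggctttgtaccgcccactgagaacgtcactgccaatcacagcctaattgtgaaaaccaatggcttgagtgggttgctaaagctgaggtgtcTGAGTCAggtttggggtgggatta
Cd84: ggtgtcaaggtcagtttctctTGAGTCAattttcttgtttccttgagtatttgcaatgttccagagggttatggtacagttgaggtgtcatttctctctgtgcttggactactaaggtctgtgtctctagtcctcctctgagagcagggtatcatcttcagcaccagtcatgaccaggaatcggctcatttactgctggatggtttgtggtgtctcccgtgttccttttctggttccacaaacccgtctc
Spp1: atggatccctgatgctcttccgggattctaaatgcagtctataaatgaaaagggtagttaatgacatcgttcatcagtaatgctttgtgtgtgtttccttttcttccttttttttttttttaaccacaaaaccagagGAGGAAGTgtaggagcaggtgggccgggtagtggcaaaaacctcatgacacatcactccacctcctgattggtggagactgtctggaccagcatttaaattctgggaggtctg
Bcl2a1b: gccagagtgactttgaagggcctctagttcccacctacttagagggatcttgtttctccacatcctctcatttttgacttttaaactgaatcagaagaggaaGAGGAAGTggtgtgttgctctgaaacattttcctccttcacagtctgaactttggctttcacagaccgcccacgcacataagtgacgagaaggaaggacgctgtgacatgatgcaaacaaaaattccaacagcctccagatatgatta
Itgax, a gene near 0 in WT mice, has the AP-1 type letters 56 bases before the start site of its window, and Cd68 has them at 149 and at 24 bases. The Itgax window ends inside the annotated gene, which begins at chr7:128129526, so the start site used for it is not the first base of that span. RefSeq windows were matched for 31 of the 36 members, 36 windows in all. The AP-1 type motif lay in 3 of the 36 windows and in 4.46% of all 32851 windows, the PU.1 type motif in 2 of 36 and in 2.44%. The motif TCACGTGA, the CLEAR type site of TFEB and related regulators of lysosomal genes, lay in 0 of 36 and in 0.785%, which says only that these letters are not in these windows.

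Levels between genes are compared in TPM, which is scaled by transcript length. In WT mice Fth1 ranked first of the 36 at 1048 ± 262 TPM (SD, n = 4) and Cd63 second at 139.9 ± 6.73 TPM, while Atp6v0d2 ranked last at 0.00740 ± 0.00913 TPM. Cst7 ranked 28 of 36 in WT at 0.528 ± 0.203 TPM, 12 in vehicle at 38.5 ± 29.8 TPM and 9 in MS1262 mice at 46.7 ± 17.3 TPM (SD, n = 4 each). Lpl moved the other way in rank, from 8 in WT to 15 in both 5xFAD groups. Fth1, Fabp5 and Lpl were thus among the 8 most abundant members in WT hippocampus, while Itgax and Atp6v0d2 ranked 35 and 36.

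The same animals were high or low for many members. Vehicle animal 2 was the highest of its group in 22 of the 36 members and vehicle animal 3 the lowest in 23. Among the 18 members called higher, these numbers were 13 and 14. MS1262 animal 2 was the highest of its group in 28 of the 36 and in 17 of those 18. In WT mice no animal was the highest in more than 14 of the 36. How often each animal was highest or lowest over all tested genes was not counted. The mean log2 CPM of the 8 identity genes was also highest in vehicle animal 2 (5.24) and lowest in vehicle animal 3 (4.21) within the vehicle group, and highest in MS1262 animal 2 (4.95) within the MS1262 group. Its part in the variation was not tested here.

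MS1262 against vehicle in 5xFAD mice asked whether the inhibitor changed these genes. Of the 36 members, 0 were called in either direction, as were 0% of all 17693 genes with edgeR's quasi-likelihood test and 0 members in each of the other fits, DESeq2 included. At an unadjusted p below 0.05 there were 2 members, Cd63 and Lgals3bp, and 1003 genes. The median log2 difference of the members was 0.05, and the single values ran from -0.69 for Ch25h to 0.93 for Atp6v0d2. The intervals show how much these libraries leave possible. For Cst7 the log2 difference was 0.22 with a 95% interval of -0.72 to 1.16, for Itgax 0.41 (-0.62 to 1.45), for Clec7a -0.15 (-1.12 to 0.82) and for Cd68 0.22 (-0.37 to 0.82). Intervals were narrower for the abundant genes, such as -0.36 to 0.25 for Cd9 and -0.32 to 0.30 for Axl.

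In CPM, Lgals3bp was the member whose vehicle and MS1262 animals did not overlap. All 4 MS1262 values, 5.60 to 6.80 CPM, were below all 4 vehicle values, 7.54 to 9.36 CPM (log2 -0.45, 95% interval -0.79 to -0.11, edgeR adjusted p = 0.848). In TPM these groups did overlap, at 5.83 to 7.03 in vehicle and 5.68 to 6.81 in MS1262 animals. The share of all genes whose vehicle and MS1262 animals lie apart was not counted here. Cd63 was at 186 ± 17.6 CPM (SD, n = 4) in vehicle and 154 ± 19.6 CPM (SD, n = 4) in MS1262 mice (log2 -0.27, -0.49 to -0.05). Spp1 was at 66.1 ± 16.1 and 43.5 ± 15.5 CPM (log2 -0.61, -1.38 to 0.16). These 3 differences are values and did not pass the adjustment. Without vehicle animal 3 the median log2 difference of the members was -0.07, and again 0 members were called.

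**Figure D2:**
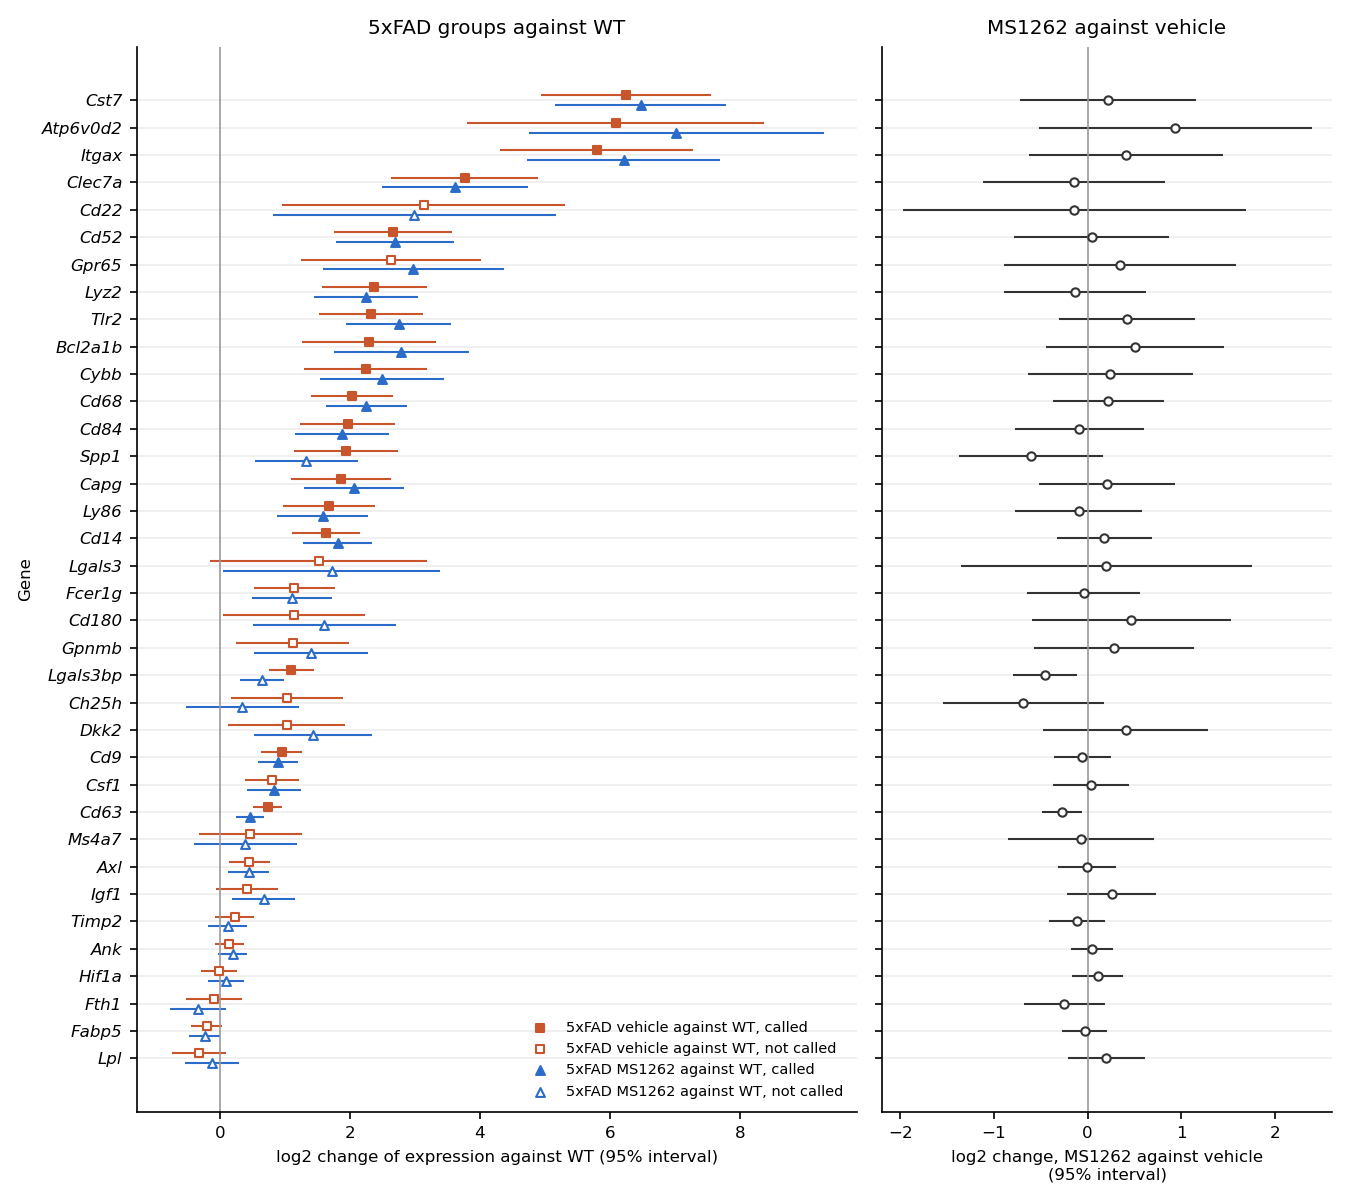
Log2 change of expression with its 95% interval for each of the 36 members, ordered by the change from WT to vehicle. The left panel shows both 5xFAD groups against WT (filled, adjusted p below 0.05), and the right panel MS1262 against vehicle, where 0 members passed. Cst7, Atp6v0d2 and Itgax lie farthest from 0 on the left, and the intervals on the right are widest for Atp6v0d2, Cd22 and Lgals3.

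MS1262 against WT mice shares the 4 WT animals with the vehicle comparison, so the lists are given side by side and are not independent. There were 18 members higher and 0 lower, against 0.91% and 0.39% of all tested genes, with a median log2 change of 1.51. Of the 29 members that reached the filter level in all WT animals, 14 were higher. Cst7 was higher by 6.48 on the log2 scale (SE 0.61, edgeR adjusted p = 8.91e-05), Itgax by 6.21, Clec7a by 3.62, Cd68 by 2.26 and Tlr2 by 2.75. Spp1 (log2 1.33, edgeR adjusted p = 0.103) and Lgals3bp (log2 0.65, edgeR adjusted p = 0.0661), called in vehicle mice, did not pass here. Csf1 (log2 0.83, edgeR adjusted p = 0.0495) and Gpr65 (log2 2.98, edgeR adjusted p = 0.0365) passed here and not in vehicle mice. None of these 4 genes passed in the direct comparison of the 5xFAD groups given above, so that a difference between those groups is not shown. Leaving out 1 animal ended the calls of Csf1, Cd63 and Ly86 for 7 of the 8 animals compared and that of Gpr65 for 6 of the 8.

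Other lists give the setting. Of 12 further genes of the same program (Trem2, Tyrobp, Apoe, B2m, Ctsb, Ctsd, Ctsl, Ctsz, Ccl3, Ccl4, Ccl6 and Cxcl16), 9 were higher in vehicle and 8 in MS1262 mice. Of the 8 microglial identity genes 3 were higher in each 5xFAD group, and of 16 homeostatic microglia genes 5 in each. These lists share genes, so their counts are not separate. From WT to vehicle mice all 8 identity genes were positive, with a median log2 change of 0.89 and 8 at an unadjusted p below 0.05. All 16 homeostatic genes were positive too, with a median of 0.74 and 12 below that p. In MS1262 against WT mice the medians were 0.84 and 0.68. Of 7 tested markers of border macrophages, 1 was higher in vehicle and 0 in MS1262 mice, with summed levels of 8.33 to 19.2 CPM in WT, 12.2 to 33.5 CPM in vehicle and 12.5 to 15.1 CPM in MS1262 animals. No tested marker of monocytes and neutrophils (2), lymphocytes (3), astrocytes (8), neurons (8), oligodendrocytes (8), their precursors (6), endothelial and mural cells (8), choroid plexus (7), meninges (8) or red blood cells (5) passed in either comparison with WT. From WT to vehicle mice the median log2 change of choroid plexus markers was 2.30, with 7 of 7 positive and 3 at an unadjusted p below 0.05. That of lymphocyte markers was 1.64, with 3 of 3 positive and 1 below that p. Neuron and oligodendrocyte markers had medians of -0.07 and -0.04. From WT to MS1262 mice the medians were -0.61 for choroid plexus and 1.79 for lymphocyte markers. No marker was listed at 0 in all inputs. Meningeal markers summed to 340 to 604 CPM in WT, 346 to 1054 CPM in vehicle and 299 to 552 CPM in MS1262 animals. In vehicle animals 1, 3 and 4 they lay above all WT animals, their median log2 change from WT to vehicle was 1.00, 8 of 8 were positive and 3 had an unadjusted p below 0.05. From vehicle to MS1262 mice the median log2 change of the meningeal markers was -0.92, with 4 of 8 at an unadjusted p below 0.05. It was -0.75 for border macrophage markers (3 of 7) and -2.73 for choroid plexus markers (7 of 7). For red blood cell markers it was -1.18 (3 of 5), for monocyte and neutrophil markers -1.01 (0 of 2) and for endothelial and mural markers -0.32 (2 of 8). The medians of neuron, oligodendrocyte precursor and lymphocyte markers were above 0, and no marker passed the adjustment there. The part of these markers' tissues in the members' changes was not tested. Choroid plexus markers summed to 7689 CPM in vehicle animal 3 and to 58.9 to 855 CPM in the other 11 animals.

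Because 3 of the 8 microglial identity genes passed in each 5xFAD group, members were also tested relative to the 8, with their mean log2 CPM taken as each library's reference. P2ry12, Tmem119 and Cx3cr1 are among the 8 and belong to the surveillant state, so the reference follows cell state as well as cell number, and less of these genes per cell would raise every member on this scale. Relative to these genes 15 members were higher and 6 lower in vehicle than in WT mice, against 0.463% and 61.3% of all tested genes, whose median log2 change on this scale was -0.89. Cst7 (5.18, SE 0.43), Atp6v0d2 (5.13, SE 0.94), Itgax (4.77, SE 0.55) and Clec7a (2.61, SE 0.40) again had the largest log2 changes. Cd52 (1.64), Gpr65 (1.63), Bcl2a1b (1.33), Lyz2 (1.26), Cybb (1.26), Tlr2 (1.26), Spp1 (1.04), Cd68 (0.99), Cd84 (0.98), Capg (0.88) and Cd14 (0.64) made up the rest of the 15. Of the 15, 4 (Cst7, Atp6v0d2, Itgax and Gpr65) are members that did not reach the filter level in all 4 WT animals and were tested through the 5xFAD animals in which they are high, and 11 are among the 29 that did.

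For Cd63 (-0.14), Cd9 (0.02) and Lgals3bp (0.22), which were higher in the tissue, the change relative to the identity genes did not pass, and Ly86 (0.62, edgeR adjusted p = 0.0513) narrowly missed. The 6 lower members were Lpl (-1.20), Fabp5 (-1.14), Fth1 (-0.97), Hif1a (-0.93), Ank (-0.77) and Timp2 (-0.67), values on either side of the median of all genes. Without vehicle animal 3, 15 members were higher and 9 lower, and Spp1 no longer passed (log2 0.75, edgeR adjusted p = 0.101). The vehicle call on this scale ended for Cd14 without any 1 of 5 animals, for Spp1 and Timp2 without any 1 of 4, for Capg without any 1 of 3, and for Ank, Cybb and Gpr65 without 1 animal. In MS1262 against WT mice 15 were higher and 6 lower on this scale, against 0.514% and 63.9% of all genes, with 11 of the 15 again among the 29, Ly86 (0.67) called and Spp1 (0.38, edgeR adjusted p = 0.369) not called. In MS1262 against vehicle mice 0 members and 0% of genes passed.

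**Figure D3:**
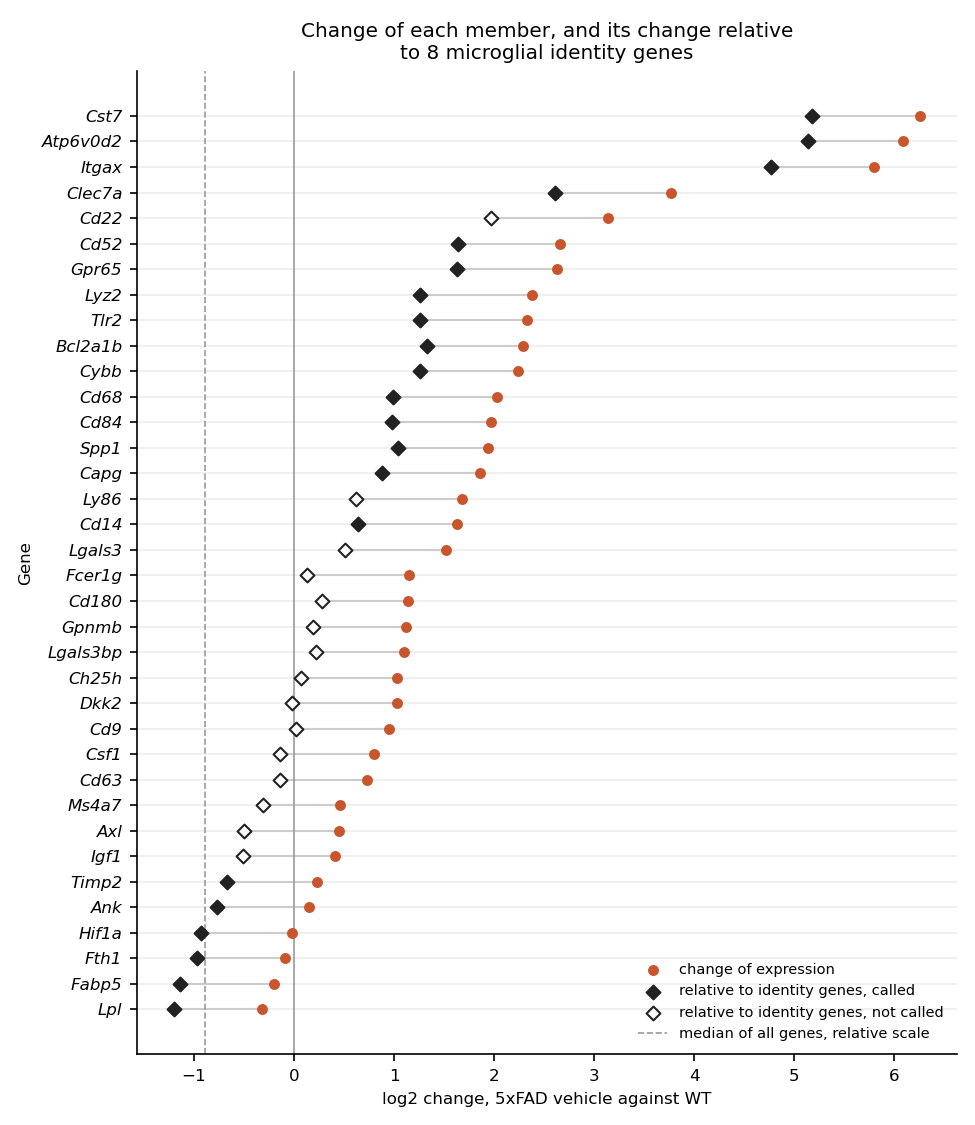
Log2 change from WT to vehicle mice of the 36 members in the tissue (circles) and relative to 8 microglial identity genes (diamonds, filled where the adjusted p is below 0.05). The dashed line is the median of all tested genes on the relative scale, -0.89. Lpl, Fabp5, Fth1, Hif1a, Ank and Timp2 lie near that line, and 15 members lie to the right of 0 with filled diamonds.

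The IP libraries come from the same animals as the inputs and are not further replicates. In the input libraries every vehicle animal lay above every WT animal for 19 members (4.08% of all genes), and in the IP libraries for 21 members (2.79%). For MS1262 against WT these numbers were 23 members in input (5.23%) and 28 members in IP (7.22%). Cst7, Itgax, Atp6v0d2 and Gpr65, which were tested through the 5xFAD animals in which they are high, are in each of these counts. Of the other members below the filter level in some WT inputs, Cd180 is in both MS1262 counts. Lgals3 is in the vehicle IP count and Cd22 in the MS1262 IP count. Cst7 in the IP libraries was at 0.113, 0.133, 0.356 and 0 CPM in WT, 34.1, 57.7, 7.44 and 31.4 CPM in vehicle and 26.2, 58.4, 50.0 and 41.9 CPM in MS1262 animals 1 to 4. Lyz2 was at 13.4 ± 5.12 CPM (SD, n = 4) in WT IP and 76.9 ± 39.3 CPM (SD, n = 4) in vehicle IP libraries. Gpnmb, whose groups overlapped in input, was at 7.56, 7.81, 7.56 and 6.08 CPM in WT and 31.2, 46.9, 15.9 and 15.7 CPM in vehicle IP libraries, without overlap.

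IP over input asked which member transcripts the m6A antibody enriched relative to all genes. The protocol used here names no step that fragments RNA ahead of the immunoprecipitation, so the ratio was treated as one of whole transcripts and not of sites. Whether the RNA was fragmented is not known here. In WT mice 1 member was higher in IP than in input and 9 were lower, against 16.8% and 16.2% of all 18300 genes tested. In vehicle mice 5 were higher and 9 lower, against 19.1% and 20.6%, and in MS1262 mice 7 were higher and 9 lower, against 20.5% and 17.6%. In the 5xFAD groups the members' counts lay near those shares, and are given here for single genes only. Lgals3bp was higher in all 3 groups, by 0.82, 1.41 and 1.52 on the log2 scale in WT, vehicle and MS1262 mice (edgeR adjusted p = 0.00246, 1.13e-05 and 5.60e-06). Gpnmb, Capg, Lyz2 and Fth1 were higher in both 5xFAD groups, by 1.09, 0.88, 0.29 and 0.77 in vehicle mice. The vehicle calls of Gpnmb, Capg and Fth1 held in all 9 alternatives, whereas that of Lyz2 was lost in 5 of 9. Ch25h (1.40) and Csf1 (0.41) were higher in MS1262 mice.

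Lower in IP than in input in all 3 groups were 6 members, Cd63, Cd9, Cd68, Fcer1g, Igf1 and Hif1a. In WT mice the log2 ratios were -0.92 for Cd63 (SE 0.11), -0.83 for Cd9 (SE 0.11), -0.95 for Cd68 (SE 0.18), -1.07 for Fcer1g (SE 0.17), -0.67 for Igf1 (SE 0.13) and -0.91 for Hif1a (SE 0.18). Cd63 gave -0.69, -1.19, -1.01 and -0.80 in WT, -0.88, -1.04, -0.99 and -0.44 in vehicle and -0.69, -0.91, -0.95 and -0.76 in MS1262 animals 1 to 4, all below 0. The scale matters here: on log2(TPM + 1) the median ratio of all genes was 0.33 in WT, 0.41 in vehicle and 0.36 in MS1262 mice in place of about 0, and on it the ratios of Igf1 in both 5xFAD groups and of Cd68 in vehicle mice turned positive, and of these 6 genes only Cd63 in WT mice was called lower (limma adjusted p = 0.0322). Ank and Timp2, called lower in both 5xFAD groups (-0.33 and -0.26 in vehicle mice), and Ly86, called lower in vehicle mice (-0.31), turned positive on it too.

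Several of these calls depended on which animals entered the fit. Without vehicle animal 3 the vehicle calls of Cd68 (-0.49, edgeR adjusted p = 0.0630), Ly86 (-0.30, edgeR adjusted p = 0.0693), Timp2 (-0.27, edgeR adjusted p = 0.0568) and Lyz2 (0.33, edgeR adjusted p = 0.0545) ended. Cd68 also lost its call without vehicle animal 1 or 2, Timp2 without 1 or 2, Ly86 without 2 or 4, and Lyz2 without any 1 of the 4 vehicle animals and with the replicate block. In MS1262 mice Ank and Csf1 lost theirs without animal 2, 3 or 4, and Timp2 without animal 1, 3 or 4 (edgeR adjusted p up to 0.133 for Csf1).

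Vehicle animal 4, with the smallest IP library, lay apart in several ratios, at 0.37 for Cd68, -2.39 for Hif1a and -1.60 for Igf1. Cst7 (-1.84), Clec7a (-0.98) and Bcl2a1b (-0.85) were called lower in IP in WT mice and not in the 5xFAD groups, a difference that did not pass the interaction test below. Counts in WT were few: Cst7 in WT IP libraries was at most 0.356 CPM. The call of Cst7 ended without WT animal 2, that of Clec7a without any 1 of the 4 WT animals, and that of Bcl2a1b without WT animal 1, 3 or 4. Ms4a7 (-1.59) was called lower in MS1262 mice.

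**Figure D4:**
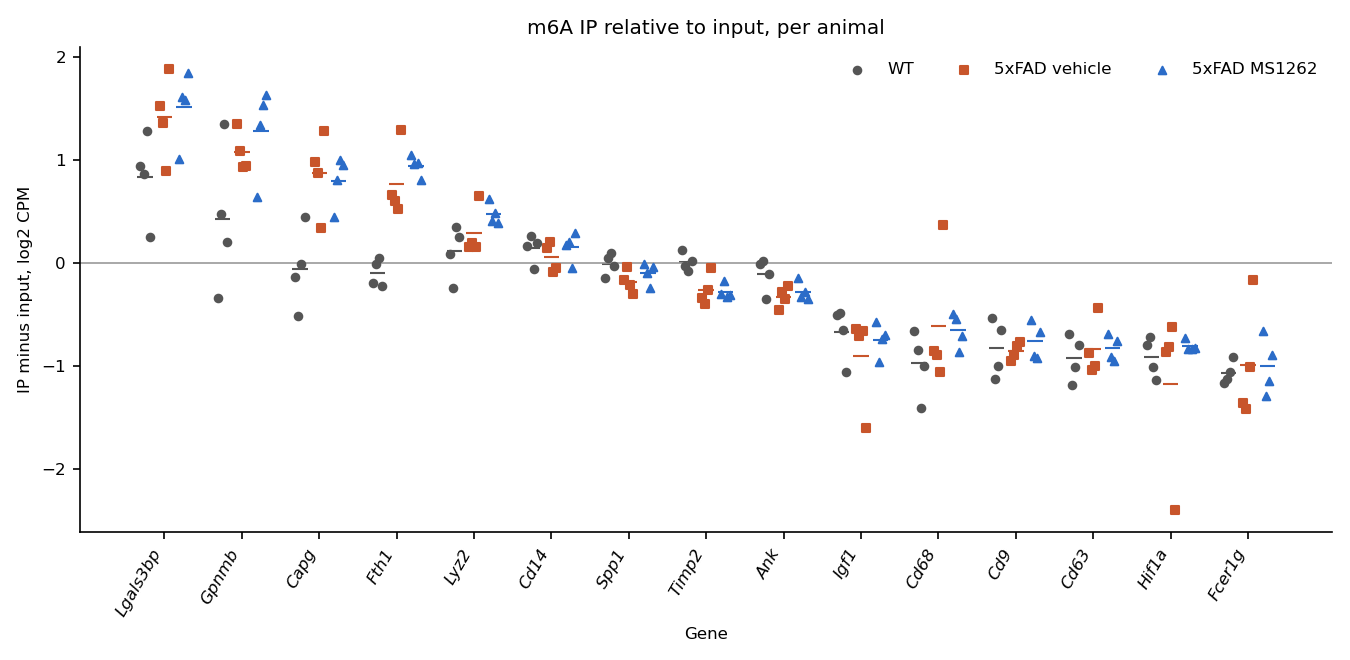
IP minus input in log2 CPM for each of the 12 animals and 15 members, with horizontal bars for group means and a line at 0. Fth1 lies near 0 in the 4 WT animals and between 0.53 and 1.29 in the vehicle animals, Lgals3bp and Gpnmb lie above 0 in all 5xFAD animals, and Cd9, Cd63 and Fcer1g lie below 0 in all 12 animals.

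The difference between groups in IP over input was tested as an interaction. From WT to vehicle mice it was higher for 1 member, Fth1, and lower for 0, against 0.962% and 0.0273% of all genes. From WT to MS1262 mice it was again higher for Fth1 alone and lower for 0, against 1.22% and 0.0219%. Between MS1262 and vehicle mice 0 members and 0% of genes passed with edgeR, and 1 member (Ly86) and 434 genes had an unadjusted p below 0.05. IP minus input of Fth1 was -0.20, -0.01, 0.05 and -0.22 in WT animals 1 to 4, 0.66, 0.60, 0.53 and 1.29 in vehicle animals 1 to 4 and 1.05, 0.96, 0.97 and 0.81 in MS1262 animals 1 to 4. All 8 5xFAD values lay above all 4 WT values, with vehicle animal 4 the highest. The interaction was 0.86 for vehicle (0.54 to 1.19, edgeR adjusted p = 0.0142) and 1.04 for MS1262 mice (0.71 to 1.37, edgeR adjusted p = 0.00403). Without vehicle animal 4 the first was 0.69 (edgeR adjusted p = 0.000158). It lost its call without WT animal 1 (0.83, edgeR adjusted p = 0.0713) or WT animal 4 (0.82, edgeR adjusted p = 0.0698), and on log2(TPM + 1) neither passed (limma adjusted p = 0.0755 and 0.0905).

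In plain levels, Fth1 in IP libraries was at 921, 743, 594 and 569 CPM in WT, 858, 898, 932 and 2576 CPM in vehicle and 1381, 1183, 1087 and 979 CPM in MS1262 animals 1 to 4 and its input change did not pass. Cst7 had a larger interaction with a wider interval, 1.84 in vehicle (0.76 to 2.92, edgeR adjusted p = 0.121) and 2.08 in MS1262 mice (1.01 to 3.15, edgeR adjusted p = 0.0554), with few counts in WT. Capg (0.99 and 0.91), Gpnmb (0.72 and 0.92) and Lgals3bp (0.59 and 0.70) had an unadjusted p below 0.05 in both and did not pass. The same held for Timp2 in the opposite direction (-0.27 and -0.29). At that unadjusted p lay 6 of 36 members and 2140 of 18300 genes for vehicle mice. For MS1262 mice they were 9 members and 2034 genes. For Cd14 and Lyz2, both higher in vehicle input, the interaction in vehicle mice was -0.09 (-0.40 to 0.21) and 0.18 (-0.15 to 0.51).

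Peaks that the authors called in each animal, IP against its own input, overlapped 15 of the 36 members in at least 1 animal, as they did 34.7% of 16881 genes with coordinates. Fth1 (chr19:9980600-9985111) held one in 11 of 12 animals. Its strongest peak had a fold enrichment of 1.81, 1.30 and 2.03 in WT animals 1, 3 and 4. In vehicle animals 1 to 4 the fold was 1.19, 1.19, 1.22 and 3.04, and in MS1262 animals 1 to 4 it was 1.75, 1.77, 1.34 and 1.17. Vehicle animals 1 to 3 were thus below every WT animal with a peak, but the places differed. The strongest peak lay within chr19:9982748-9983114 in WT animals 3 and 4 and vehicle animals 1 to 3. It lay at chr19:9984665-9984997 in WT animal 1, at chr19:9984020-9985090 in vehicle animal 4 and at chr19:9984664-9985043 in MS1262 animal 1. Fold at a single peak and IP over input of the whole gene are unlike measures. Lgals3bp (chr11:118392747-118401959) held one in 0 WT, 4 vehicle and 3 MS1262 animals, with the strongest peak of each animal within chr11:118392850-118394066 at fold enrichments of 2.00 to 3.56 as the authors' caller gave them. Gpnmb held one in 0, 2 and 3 animals (chr6:49047244-49048163), Lyz2 in 0, 2 and 4 (chr10:117277457-117278873) and Lpl in 0, 1 and 3, where the 3 MS1262 animals had it at separate places within the gene. By the rule of at least 3 of 4 animals in one group and 0 of 4 in the other, 1 member (Lgals3bp) had peaks in vehicle and not WT mice, against 1.18% of genes, and 4 (Gpnmb, Lgals3bp, Lpl and Lyz2) in MS1262 and not WT mice, against 1.9%. Without MS1262 animal 2, 3 or 4 the 4 became 1. The rule fixed this, since it still asked for 3 animals, and Gpnmb, Lgals3bp and Lpl had peaks in MS1262 animals 2, 3 and 4 only.

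Timp2 went the other way, with a peak in 4 WT, 1 vehicle and 1 MS1262 animals. Cst7 held a peak in 0 WT, 1 vehicle and 2 MS1262 animals and Cd14 in 0, 2 and 2. A peak needs enough reads, and Lgals3bp, Lyz2, Cst7 and Cd14 were all higher in vehicle than WT input, so that expression moves with these peaks and its part in them was not tested. The 21 members with no peak in any animal include Itgax, Cd9, Cd52, Cd84, Tlr2 and Igf1. Coordinates are those of GRCm38, and exons and introns were not used here.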

How the data were processed

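Input and m6A IP libraries of 12 mouse hippocampi (3 groups of 4) were analysed from the deposited quantification and peak files. Per the submitters' processing notes, which give no roles, the tools named include Salmon 1.4.0, MACS2 2.1.2, STAR 2.7.6a, Trimmomatic 0.32 and SAMtools 1.10, with GRCm38/mm10. The deposited estimated counts per gene are not whole in 8.62% of values and were rounded. The deposited TPM values are scaled by the authors for length and depth. Each deposited peak list, called per animal, gives pileup (a coverage signal), fold enrichment and -log10 of p and q, per the file headers.

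Counts were tested with edgeR 4.0.16 (TMM, quasi-likelihood; minimum count 10; Benjamini-Hochberg over all genes, threshold 0.05) under R 4.3.3, with all 3 groups in the fit. IP over input and its difference between groups came from 24 libraries with the animal as a block. The labels do not say more than that the samples are separate animals' libraries. Members and lists were chosen with earlier results of these data known, and some genes of the marker lists are not reported here by name. Values in every animal are given for up to 4 called members per role group with the smallest p, for Cst7, Itgax and Clec7a, and for members called in m6A; others were added where a statement turned on them, some after their values were seen. Alternatives were DESeq2 1.42.0, limma 3.58.1 on log2 TPM with pseudocounts of 1 and 0.1, other size factors, no filter, 2 groups alone, a replicate block and leaving out each animal. Replicate numbers did not pair animals: over 12 same-numbered pairs the correlation of deviations was -0.0903 to 0.0472.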

Additional observations from a re-analysis of the deposited data

Results flagged for a closer look

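Over 72 groups of 4 animals tested for a single distant value, 2 were marked, and chance marks about 1 in 20. IP minus input of Cd68 was 0.370 log2 CPM in vehicle animal 4, against -1.05 to -0.86 in the other 3 vehicle animals. Input Bcl2a1b was 3.48 CPM in WT animal 1, against 0.710 to 1.10 CPM in the other 3 WT animals. The IP over input ratio of Fth1 differed between groups by the interaction test, by 0.864 on the log2 scale for vehicle against WT and by 1.04 for MS1262 against WT mice. Both comparisons share the WT animals, and the edgeR adjusted p was 0.0142 and 0.00403.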

How the results depend on the processing

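Of the 18 members higher in vehicle than WT mice, 10 kept the call in every alternative run (Cst7, Clec7a, Cd14, Cd52, Cd63, Cd68, Cd84, Cd9, Lgals3bp and Lyz2), and of the 18 in MS1262 mice 12 did. The count ran from 14 to 21 in vehicle and from 14 to 17 in MS1262 mice when 1 animal was left out. With the replicate block it was 15 and 17. The block ended the calls of Cybb, Ly86 and Spp1 in vehicle mice, of Cd63, Csf1 and Ly86 in MS1262 mice, and of Clec7a and Lyz2 in IP over input of WT and vehicle mice, and its numbers pair nothing in the labels.

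The m6A count from WT to vehicle (1 higher) was 2 with DESeq2, 0 on log2(TPM + 1), 3 with no filter and 0 to 2 with 1 animal left out, and the lower count (0) was 0 to 1. From WT to MS1262 (1 higher) it was 3, 0, 4 and 1 to 3. On log2(TPM + 1), IP over input called 14 higher and 1 lower in WT (1 and 9 in edgeR), 24 and 0 in vehicle (5 and 9) and 22 and 0 in MS1262 mice (7 and 9), and the higher count in WT was 1 to 2 with 1 animal left out. On that scale the median of all genes was 0.33, 0.41 and 0.36, and signs turned for Ank (0.324), Cd68 (0.0663), Igf1 (0.151), Ly86 (0.379) and Timp2 (0.452) in vehicle and Ank (0.272), Igf1 (0.113) and Timp2 (0.322) in MS1262 mice. Members with peaks in MS1262 and not WT mice (4) numbered 1 to 4 with 1 animal left out, where the rule still asked for 3 animals. The cause of the other changes was not tested. Depth limits the genes near 0 in WT mice and the IP library of vehicle animal 4.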
